A study of Mus musculus with 4 samples.

Results

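Ctgf, Cyr61, Ankrd1, Amotl2, Lats2, Yap1, Wwtr1, Tead1 and Skil are 9 mouse genes of the Hippo and TGF-beta pathways. They were taken by symbol from the 25050 genes of the deposited table, and all 9 were found. They were picked with the comparison of these 4 libraries already known, so their values are given as a description, without a p-value for each gene. RNA was sequenced from HT-22, a continuously growing cell line derived from mouse hippocampus, at passages 21 to 24. The 2 groups hold 2 libraries each: wild type cells, and cells that overexpress Nsmce1, a RING finger protein of the SMC5/6 complex for chromosome maintenance. The submitters also describe the controls as cells whose inducible Nsmce1 was left uninduced. The labels give no promoter, inducer or clone for the overexpressing cells, and do not say whether the replicates were grown separately. Any spread between replicates may therefore be technical, and an effect of Nsmce1 and other differences between the 2 cell populations cannot be told apart.

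The Hippo pathway is a kinase cascade in which the kinases LATS1 and LATS2 phosphorylate the coactivators YAP (Yap1) and TAZ (Wwtr1) and keep them out of the nucleus. Unphosphorylated YAP and TAZ enter the nucleus and bind TEAD factors, which recognise the DNA motif GGAATG and switch on genes such as Ctgf, Cyr61 and Ankrd1. Lats2 and Amotl2 are targets of the same factors and restrain YAP, which closes a negative feedback loop. TGF-beta acts through receptor kinases and SMAD proteins, induces Ctgf as well, and is held back by SnoN, the product of Skil.

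The promoters of genes on both sides of the comparison below are shown for the TEAD motif, which is in capitals and reads GGAATG on the gene's strand or CATTCC on the other. The first 3 lines give the 250 bases before the transcription start of Cyr61, Ankrd1 and Amotl2, and the next 3 give 30 bases around the match in Lats2, Yap1 and Wwtr1. All are 5′ to 3′ on the gene's strand, from RefSeq on GRCm38.p6. That build differs from the mm9 of the submitters' processing notes.
Cyr61, chr3:145649986-145650235, minus strand: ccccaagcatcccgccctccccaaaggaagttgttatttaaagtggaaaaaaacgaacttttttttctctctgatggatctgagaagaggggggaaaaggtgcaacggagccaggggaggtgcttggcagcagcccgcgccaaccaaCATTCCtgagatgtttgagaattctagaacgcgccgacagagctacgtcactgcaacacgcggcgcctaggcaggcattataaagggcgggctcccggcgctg
Ankrd1, chr19:36119845-36120094, minus strand: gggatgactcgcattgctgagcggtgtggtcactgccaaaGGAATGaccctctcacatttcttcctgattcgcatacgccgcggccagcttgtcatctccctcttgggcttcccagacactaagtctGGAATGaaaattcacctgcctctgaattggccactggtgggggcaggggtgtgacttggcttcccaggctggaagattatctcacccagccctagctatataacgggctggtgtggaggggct
Amotl2, chr9:102717554-102717803, plus strand: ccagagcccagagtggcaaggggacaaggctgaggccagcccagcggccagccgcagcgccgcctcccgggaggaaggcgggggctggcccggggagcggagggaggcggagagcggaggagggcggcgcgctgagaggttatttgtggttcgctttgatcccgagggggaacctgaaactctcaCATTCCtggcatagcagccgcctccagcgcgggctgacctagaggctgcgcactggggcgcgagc
Lats2, chr14:57746102-57746131, minus strand: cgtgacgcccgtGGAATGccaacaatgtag
Yap1, chr9:8004720-8004749, minus strand: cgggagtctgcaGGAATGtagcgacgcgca
Wwtr1, chr3:57576029-57576058, minus strand: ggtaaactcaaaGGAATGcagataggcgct

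Promoter windows from 250 bases before to 50 after the start were searched on both strands for GGAATG, for the AP-1 motif TGANTCA and for the short SMAD motif CAGAC. RefSeq windows were matched for 6 of the 9 genes, and Ctgf, Tead1 and Skil had no entry. All 6 genes held GGAATG on one strand or the other. The share was 14.6% of the 10301 tested genes with a window and 16.58% of all 27025 genes with a window. The match lay at position -103 from the start in Cyr61, at -65 in Amotl2, at -141 in Yap1 and at -136 in the first window of Wwtr1. Ankrd1 held 2 matches, at -210 and -123, and in Lats2 the match lay just after the start, at position 5. The second window of Lats2 held no match, and the second window of Wwtr1 overlaps the first and holds the same site. CAGAC was found in 4 of the 6 genes (Cyr61, Ankrd1, Lats2 and Yap1) and in 53.2% of all genes with a window. In Ankrd1 one match of CAGAC shares 1 base with the TEAD match at -123. TGANTCA was found in 0 of the 6 genes and in 8.97% of all genes with a window. The matches show letters only, and binding was not measured here.

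**Figure D1:**
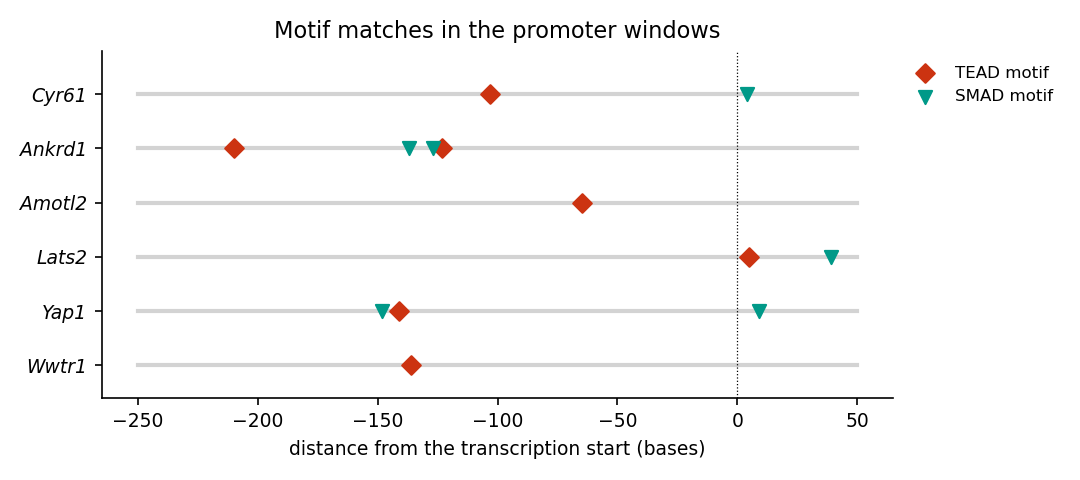
Positions of TEAD (red diamonds, GGAATG) and SMAD (green triangles, CAGAC) motif matches on either strand in the first RefSeq promoter window of 6 genes, with the distance from the transcription start in bases on the x axis. Each gene has at least 1 TEAD match, from -210 to 5.

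The libraries held 25787452 to 44602989 whole reads. Values below are normalised read counts, obtained by undoing the log2 of the deposited values. Nsmce1, the overexpressed gene, had counts of 1108 and 1206 normalised reads in wild type and of 17851 and 16525 with overexpression. All 9 genes were among the 15540 tested, with 280 to 7007 whole reads in a library.

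The secreted targets and Ankrd1 stood lower in the overexpressing cells. Ctgf encodes connective tissue growth factor, a secreted matricellular protein now also called CCN2. Its normalised reads numbered 3135 and 2842 in the wild type pair, against 2011 and 1979 in the overexpressing pair. Both overexpressing libraries lay well below both wild type ones, and the difference of the group means on the log2 scale was 4.11 times the wider gap between replicates. The mean was 2989 ± 207 in wild type and 1995 ± 22.7 with overexpression (SD, n = 2), which is 33.2% lower (log2 fold change -0.58, SE 0.0873). Ctgf lies on chromosome 10, where the median log2 fold change over 752 tested genes was 0.14. With the median of each chromosome removed, the log2 fold change of Ctgf was -0.72. The annotated transcript Gm15270 overlaps exons of Ctgf on the opposite strand, with 61.0 to 83.0 normalised reads, and the sources used here do not say whether counting used strand.

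Cyr61, or CCN1, is a secreted relative of Ctgf and an early target of YAP. Its normalised reads were 2364 and 2580 in wild type and 1992 and 2167 with overexpression. The groups did not overlap, and their difference was 1.98 times the wider gap between replicates. The mean was 2472 ± 153 in the first group and 2079 ± 123 in the second, which is 15.9% lower (log2 fold change -0.25, SE 0.0927). Ankrd1 encodes a nuclear and sarcomeric ankyrin repeat protein and had the closest replicates of the 3 targets. It had counts of 1415 and 1431 normalised reads in wild type and of 1225 and 1232 with overexpression. The group difference was 12.6 times the wider replicate gap. That ratio is high because the gaps were small, at 0.017 and 0.008 on the log2 scale, and 2 libraries measure a gap only roughly. The mean of Ankrd1 was 13.7% lower (log2 fold change -0.21, SE 0.0865), a smaller change than that of Ctgf at a similar SE.

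The 2 feedback inhibitors stood on opposite sides. Amotl2, an angiomotin-like scaffold that binds YAP and holds it in the cytoplasm, showed 4478 and 4128 normalised reads in the wild type pair, against 4936 and 5115 in the overexpressing pair. Both overexpressing libraries were above both wild type ones, with a mean 16.8% higher (log2 fold change 0.22, SE 0.0799). Lats2, a kinase that phosphorylates YAP and TAZ, had counts of 1606 and 1487 normalised reads in wild type and of 1343 and 1286 with overexpression. Here both overexpressing libraries were lower, with a mean 15.0% below wild type (log2 fold change -0.23, SE 0.0925). In the reference annotation the gene Gm49361 shares 2955 exon bases with Lats2 on the same strand, so reads of Lats2 can be split with it; it was not analysed here.

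The coactivators and their partner Tead1 had log2 fold changes nearer 0 than Ctgf and Skil, as did Cyr61, Ankrd1, Amotl2 and Lats2. Yap1 showed 3827 and 3512 normalised reads in the wild type pair, against 4021 and 4248 in the overexpressing pair. The groups did not overlap, with the first wild type library close to the first overexpressing one, and the mean was 12.7% higher (log2 fold change 0.17, SE 0.0837). Wwtr1, which encodes TAZ, had counts of 5103 and 4801 normalised reads in wild type and of 5610 and 4500 with overexpression. The 2 overexpressing libraries lay on either side of both wild type libraries, and the log2 fold change was 0.02 (SE 0.118). Tead1, a DNA-binding partner of both coactivators, showed 1217 and 1654 normalised reads in the wild type pair, against 1172 and 1278 in the overexpressing pair. The groups overlapped, and the second wild type library was higher than the other 3. The log2 fold change of Tead1 was -0.21 (SE 0.157), and without wild type replicate 2 it was 0.008.

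Skil encodes SnoN, a repressor of SMAD-driven transcription that TGF-beta itself induces. It had counts of 352 and 354 normalised reads in wild type and of 626 and 449 with overexpression. The wild type libraries were nearly equal and both overexpressing libraries were above them, but the first by far more than the second. The mean was 353 ± 1.24 in wild type and 537 ± 125 in overexpressing cells, a log2 fold change of 0.59 (SE 0.180). With overexpression replicate 1 left out it was 0.35, and with overexpression replicate 2 left out 0.82.

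**Figure D2:**
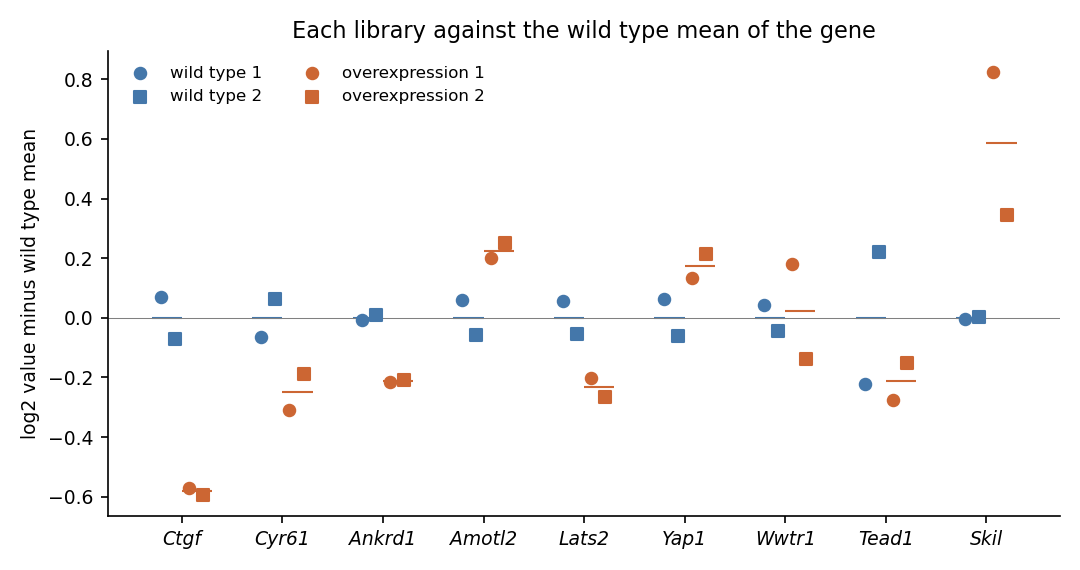
The log2 value of each library minus the wild type mean of the gene, for the 9 genes on the x axis, with blue for wild type, orange for overexpression, circles and squares for replicates 1 and 2, and short lines for group means. Ctgf is the lowest in both overexpressing libraries, Skil is the highest but with replicates far apart, and the groups overlap in Wwtr1 and Tead1.

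The groups did not overlap in 7 of the 9 genes, where 39.1% of all tested genes had groups that did not overlap. Ctgf, Cyr61, Ankrd1 and Lats2 were the 4 lower ones, against 18.3% of all tested genes, and Amotl2, Yap1 and Skil the 3 higher ones, against 20.8%. By limma with Benjamini-Hochberg adjustment over all tested genes, 0 of the 9 passed an adjusted p of 0.05, a threshold that 0.193% of the tested genes passed. At an unadjusted limma p under 0.05 there were 6 of the 9, against 7.92% of all tested genes. That count fell to 2 with limma without a mean-variance trend. With limma voom on whole reads 0 of the 9 passed the adjusted threshold, and with robust variances Ctgf passed. Set against the wider gap between replicates on the log2 scale, the group difference was 2.11 times that gap in Lats2, 1.92 in Amotl2, 1.40 in Yap1, 1.22 in Skil, 0.482 in Tead1 and 0.068 in Wwtr1. Because the genes were picked with this contrast known, these counts are given as a description and nothing is read from them.

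With 1 library left out, the sign of the log2 fold change cannot change in the 7 of the 9 genes whose groups did not overlap. For these only the size of the change is informative. The sign did change in Tead1 and Wwtr1, whose groups overlapped. Ctgf ranged from -0.65 to -0.51, Cyr61 from -0.31 to -0.19 and Lats2 from -0.29 to -0.18. Ankrd1 ranged from -0.22 to -0.20, the narrowest span of the 9 genes. On the other side, Amotl2 ranged from 0.17 to 0.28 and Yap1 from 0.11 to 0.23. Wwtr1 ranged from -0.14 to 0.18 and Tead1 from -0.43 to 0.008.

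**Figure D3:**
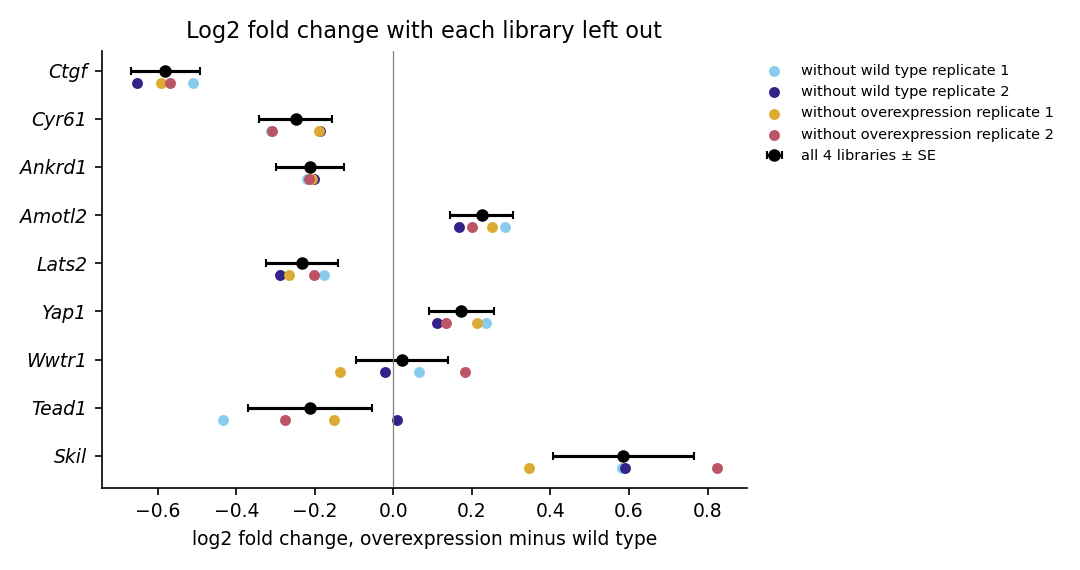
Log2 fold change (overexpression minus wild type, x axis) of each of the 9 genes, with black points and bars for all 4 libraries ± SE and coloured points for the value without 1 library. The coloured points of Ctgf stay between -0.65 and -0.51, while those of Wwtr1 and Tead1 lie on both sides of 0.

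Levels of different genes were compared as normalised reads per kb of merged exon length (GENCODE M21). In wild type cells Cyr61 was the most abundant at 1224 ± 75.7 per kb (SD, n = 2), followed by Ctgf at 1045 ± 72.3 and Wwtr1 at 1036 ± 44.6. The libraries of Ctgf and Wwtr1 overlapped, so their order is not settled. Below them came Amotl2 at 684 ± 39.3, Ankrd1 at 493 ± 4.05, Yap1 at 396 ± 24.0, Lats2 at 222 ± 12.1, Tead1 at 106 ± 22.8 and Skil at 36.4 ± 0.128 per kb. Each of these neighbours was separated in both wild type libraries. In overexpressing cells Amotl2 (799 ± 20.1 per kb) stood above Ctgf (697 ± 7.92), and Yap1 (447 ± 17.4) above Ankrd1 (426 ± 1.76), the reverse of wild type. Wwtr1 (1058 ± 164) and Cyr61 (1030 ± 61.1) overlapped there. Skil remained the lowest in both groups, at 55.4 ± 12.9 per kb in overexpressing cells. The order of genes per kb depends on the exon lengths used. Without division by length, Amotl2 stood above Ctgf and Yap1 above Ankrd1 in every library.

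**Figure D4:**
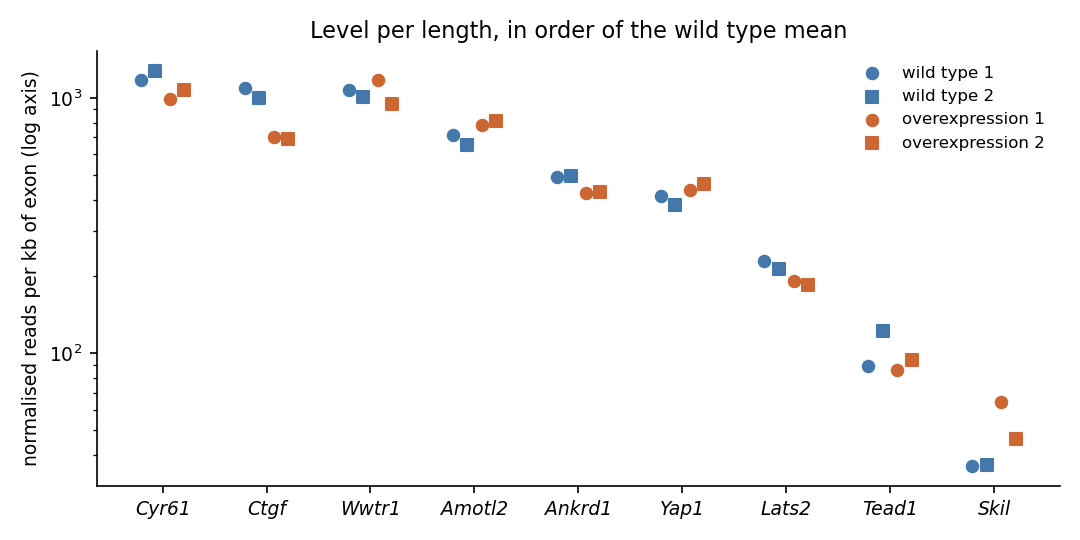
Normalised reads per kb of exon on a log axis for the 9 genes, ordered by the wild type mean, with blue for wild type, orange for overexpression, and circles and squares for replicates 1 and 2. The genes run from Cyr61 at about 1224 per kb to Skil at 36.4 per kb in wild type, and Ctgf drops below Amotl2 in the overexpressing libraries.

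Ratios of 2 genes within a library do not depend on how libraries were scaled, and all those given here are ratios of reads per kb of exon. The ratio of Ctgf to Amotl2 was 1.54 and 1.51 in wild type and 0.896 and 0.851 with overexpression. Ctgf was thus the higher of the 2 per kb in both wild type libraries and the lower in both overexpressing ones. In normalised reads without division by exon length, Amotl2 was the higher in every library. The order per kb depends on the merged exon lengths, 2861 bases for Ctgf and 6289 for Amotl2. The ratio of Ctgf to its relative Cyr61 per kb was 0.936 and 0.777 in wild type and 0.712 and 0.645 with overexpression, lower in both but with replicates further apart. Lats2 was set against Lats1, the other LATS kinase. Their ratio was 0.490 and 0.486 in wild type and 0.380 and 0.329 with overexpression. Lats1 lies on chromosome 10, whose median log2 fold change was 0.14. Its own log2 fold change was 0.23, and 0.086 with chromosome medians removed. Skil to Ski, a related SMAD corepressor, was 0.0408 and 0.0411 in wild type and 0.0694 and 0.0498 with overexpression. Wwtr1 to Yap1 per kb was 2.58 and 2.65 in wild type and 2.70 and 2.05 with overexpression, and these groups overlapped.

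The other genes of the 2 pathways were taken from 9 lists, grouped by role. Of 127 listed genes 116 were in the table and 109 were tested. By limma 0 of the 109 passed the adjusted threshold, where 0.193% of all tested genes did, and 13 had an unadjusted limma p under 0.05 (11.9%, against 7.92% of all tested genes). The count of 13 changed to 7 with limma without a mean-variance trend and to 11 with chromosome medians removed. With the replicate number as a block it was 18. Groups did not overlap in the higher direction for 31.2% and in the lower for 14.7% of the 109, against 20.8% and 18.3% of all tested genes. The median log2 fold change was 0.05 over the 109 and 0.005 over all tested genes.

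Among 14 further tested YAP and TEAD targets, 7 lay above and 7 below 0, with a median log2 fold change of 0.001. Myof, a membrane repair protein of the ferlin family, showed 9498 and 8904 normalised reads in the wild type pair, against 7691 and 7567 in the overexpressing pair (log2 fold change -0.27, SE 0.0733, limma adjusted p = 0.418). It was the 1 gene of this list with an unadjusted limma p under 0.05, a share of 7.14%, against 7.92% of all tested genes. The stress gene Gadd45a stood at -0.31 (SE 0.140), and Rbms3 at 2.66 (SE 1.10) from at most 23 normalised reads in a library. With 1 library left out Rbms3 ranged from 1.11 to 4.20, and it was 1.51 with a pseudocount of 5 and 4.32 with a pseudocount of 0.1. Axl, a receptor tyrosine kinase and a well-known YAP target, had counts of 21006 and 22472 normalised reads in wild type and of 21433 and 21889 with overexpression, and those groups overlapped. Axl is named here after its values were seen. In the CCN family, to which Ctgf and Cyr61 belong, Wisp1, Wisp2 and Wisp3 were tested and stood at -0.13, -0.03 and -0.31, with SEs of 0.0984, 0.141 and 0.453. The value of Wisp3 comes from at most 16.9 normalised reads in a library. Wisp3 lies on chromosome 10 and stood at -0.45 with chromosome medians removed. With 1 library left out Wisp1 ranged from -0.24 to -0.017 and Wisp3 from -0.50 to -0.12. None passed, and Nov was not found among the 25050 genes.

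Of 25 Hippo kinases and regulators, 19 lay above 0 with a median of 0.055, against 51.3% above 0 among all tested genes. Strn3, a subunit of the STRIPAK phosphatase complex that opposes the Hippo kinases, showed 3110 and 3132 normalised reads in the wild type pair, against 3947 and 3793 in the overexpressing pair (log2 fold change 0.31, limma adjusted p = 0.350). Lats1 stood at 0.23 and the scaffold gene Frmd6 at 0.23. Lats1 is on chromosome 10, like Ctgf, and stood at 0.086 with chromosome medians removed. Among 5 TEAD factors and VGLL cofactors, Vgll4, which competes with YAP for TEAD, stood at 0.33 (SE 0.113), Tead3 at -0.18 (SE 0.0864) and Vgll3 at 0.20 (SE 0.225). Vgll3 lies on chromosome 16, whose median log2 fold change was 0.17, and stood at 0.044 with chromosome medians removed.

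On the TGF-beta side, 10 of 12 ligands and latency or binding proteins lay above 0, with a median of 0.24. Follistatin (Fst), which traps activins, had counts of 114 and 123 normalised reads in wild type and of 172 and 210 with overexpression (log2 fold change 0.67, SE 0.189, limma adjusted p = 0.435). Its relative Fstl3 stood at 0.41 (0.26 with chromosome medians removed, as it lies on chromosome 10) and the latency protein gene Ltbp2 at 0.64. Of 8 receptors 5 lay above 0, with a median of 0.07. The coreceptor gene Eng showed 72.9 and 70.6 normalised reads in the wild type pair, against 33.0 and 48.9 in the overexpressing pair (log2 fold change -0.82, SE 0.296, limma adjusted p = 0.563), Tgfbr2 stood at 0.165 (SE 0.0836) and Acvr2b at 0.33. Of 14 SMADs and their regulators 11 lay above 0 (median 0.09). The 3 with the smallest p, the ubiquitin ligase gene Smurf2, the corepressor gene Tgif1 and Trim33, stood at 0.15, 0.19 and 0.13, with SEs of 0.0759, 0.117 and 0.0838. With 1 library left out Tgif1 ranged from 0.098 to 0.28 and Trim33 from 0.054 to 0.20.

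TGF-beta target genes, of which 22 were tested, had 13 above and 9 below 0 and a median of 0.03. The cell cycle inhibitor gene Cdkn1a stood at 0.32 (SE 0.0956, limma adjusted p = 0.471) and the tropomyosin gene Tpm1 at 0.19 (SE 0.0926). Pmepa1, a feedback inhibitor that TGF-beta induces, is named after its values were seen. It had counts of 308 and 230 normalised reads in wild type and of 196 and 212 with overexpression (log2 fold change -0.38, SE 0.190, limma adjusted p = 0.681). The groups did not overlap in the lower direction, as in 18.3% of all tested genes. Of 13 SRF and MRTF targets 7 lay above 0, with a median of 0.003. Fhl2, a LIM-domain coactivator, stood at -0.34 (SE 0.0894, limma adjusted p = 0.409), the muscle tropomyosin gene Tpm2 at -0.21 and the calponin gene Cnn2, on chromosome 10, at 0.21 (0.071 with chromosome medians removed).

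**Figure D5:**
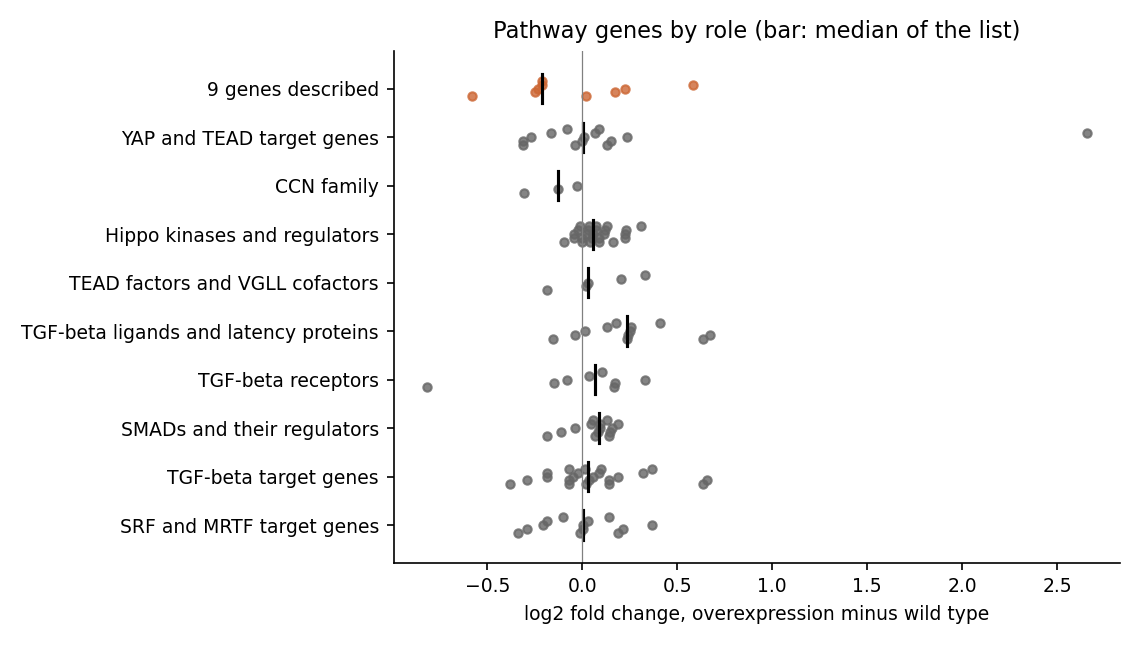
Log2 fold change (overexpression minus wild type, x axis) of the 9 genes (orange) and of each tested gene of the 9 pathway lists (grey), with a black bar at the median of each list. The further YAP and TEAD targets divide evenly around 0. The list of TGF-beta ligands and latency proteins, which includes the binding proteins Fst and Fstl3, has a median of 0.24.

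The direction of tested genes was also set beside GGAATG in their promoter window. Of the 10301 tested genes with a window, 1504 held it, with a median log2 fold change of 0.006 and 51.6% above 0, beside a median of 0.007 and 51.9% above 0 for all 10301. Among the further YAP and TEAD targets, 3 of the 9 with a window held it (Axl, Crim1 and Ptpn14, at -0.004, 0.13 and 0.15).

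The genes whose profile over the 4 libraries was most like that of Ctgf were sought among 11649 other genes with a mean of at least 100 normalised reads. The measure was the Euclidean distance between log2 values centred on each gene's mean. The nearest was Mat2a, the enzyme that makes S-adenosylmethionine, at a distance of 0.0616, with 13415 and 12345 normalised reads in the wild type pair, against 8293 and 8217 in the overexpressing pair. Next came Sardh, a mitochondrial sarcosine dehydrogenase, and Col7a1, a chain of anchoring fibril collagen, at 0.0616 and 0.0627. Golim4, a Golgi membrane protein, and Gtdc1, a glycosyltransferase-like gene, followed at 0.0639 and 0.0896. None of these 5 is in the pathway lists.

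Markers were used to check the labelled cell type. Of 15 neuronal markers 4 were tested (Tubb3, Syn1, Dlg4 and Camk2a). Syt1, Gria1, Grin1, Slc17a7, Prox1, Nefm and Stmn2 had a mean below 10 normalised reads. Rbfox3, Map2, Snap25 and Nefl were looked up by name and not found among the 25050 genes. The summed neuronal list came to 3566 to 4336 normalised reads in wild type and 3952 to 3959 in overexpressing cells. Of 10 fibroblast and mesenchymal markers 9 were tested, and the whole list summed to 417270 to 483690 in wild type and 394660 to 455140 in overexpressing cells, which overlap. Pdgfra and Fn1 of this list had log2 fold changes above 0, at 0.08 and 0.06. The groups overlapped in every tested marker of the list but Postn and Col3a1. Those mesenchymal matrix genes, named after their values were seen, stood lower with overexpression, with limma adjusted p = 0.546 and 0.560. Postn had 1079 and 710 in wild type and 624 and 407 with overexpression. Col3a1 had 81869 and 68553 in wild type and 64349 and 52554 with overexpression. The astrocyte list summed to 3022 to 3368 in wild type and 4264 to 4560 in overexpressing cells, nearly all of it Slc1a3, with Gfap below 10. The other tested astrocyte marker, Aldh1l1, went the other way, with 57.8 and 65.3 in wild type and 14.0 and 12.4 with overexpression (limma adjusted p = 0.118). The microglia list summed to 1900 to 2245 and 1538 to 1652, mostly Tmem119, with Ptprc, Itgam and Cx3cr1 below 10. Endothelial markers summed to at most 69.5. The part of other cell types in the values of Ctgf and its relatives was not tested, and in such bulk samples fewer cells of a type and less RNA per cell cannot be told apart.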

How the data were processed

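The authors deposited 1 log2 value per gene and library. The log2 was undone (2 to the power of the value, minus 1), and every library then held multiples of a single step (100% of values were whole reads within a tolerance of 0.001 read), so a value is a read count divided by a library factor. Per the submitters' processing notes, HISAT, Cufflinks and mm9 were used; versions and read assignment are not given in the sources used here. Per the labels, libraries used a TruSeq RNA kit and BGISEQ-500 protocols.

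Genes with a mean of at least 10 normalised reads (15540 of 25050) were fitted with limma 3.58.1 (R 4.3.3) on the deposited log2 values, that is log2(value + 1), with a mean-variance trend and group as the only term. P-values are two-sided and Benjamini-Hochberg adjusted over all tested genes, with a threshold of 0.05. Fold changes of low genes are understated. With 2 against 2 libraries the smallest exact permutation p is 0.333, so calls rest on the pooled variance (6.1 degrees of freedom). The steps were tested on simulated data. Members, lists and tests were chosen with earlier results of these data known. Named genes are the 9 members, the 3 with the smallest p in each list, any past the threshold, the 5 nearest to Ctgf, and Nsmce1. Outside that rule, Axl, Pmepa1 and the cell type markers singled out were chosen after their values were seen, and Axl, Crim1 and Ptpn14 are named for the motif in their windows. Alternatives covered pseudocount, filter, scaling, variance model, replicate block, chromosome medians and left-out libraries. Chromosomes and exon lengths came from GENCODE M21 by identifier, for 15503 of the tested genes.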

Additional observations from a re-analysis of the deposited data

How the results depend on the processing

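The number of genes called over the whole table, 30, was 16 without a filter on low values, 18 with quantile normalization, 9 with limma without trend and 72 with robust variances. Leaving out 1 library gave 2 (without wild type replicate 1) to 75 (without overexpression replicate 2) called genes, with 9 without wild type replicate 2 and 51 without overexpression replicate 1. A group then holds a single library, which is assumed to vary like the other group. The number of pathway genes called was 0 in all 16 alternatives. With the replicate number as a block 60 genes were called and 0 of the 9 members. Differences between replicates 1 and 2 correlated across genes with r = 0.007 between the groups. That value covers all tested genes at once and cannot show whether some genes share a replicate effect, which was not tested. In the 12 alternatives that keep all libraries, each member kept its sign except Wwtr1, which was -0.013 with chromosome medians removed. The log2 fold change of Wisp2 ranged from -0.18 to 0.13 and that of Vgll3 from -0.08 to 0.49 with 1 library left out. The cause of these changes was not tested.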
